A study of Mus musculus with 12 samples.

Results

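The RNA of 9 mouse genes that carry out or control inflammatory and programmed cell death was followed in small-intestinal epithelium with and without induced loss of the histone acetyltransferase genes Kat2a and Kat2b. The genes were taken as a list: Ripk1, Ripk3 and Mlkl of necroptosis, the caspases Casp8, Casp1 and Casp4, and Gsdmd, Il18 and Ninj1, which act when pyroptotic cells open. The list was chosen with earlier results of these data known. All 9 were found among the 48526 gene rows by Ensembl identifier, and all 9 passed the filter on low counts in every comparison below. The mice were 4 females of 3 months. In 2 of them the KAT2A/KAT2B DKO (double knockout) was induced by tamoxifen at 100 mg/kg, given intraperitoneally once a day for 4 days. The other 2, labelled control, received the ethanol and corn oil vehicle without tamoxifen, so genotype and tamoxifen cannot be told apart. Epithelial cells were taken from the proximal small intestine 2 days after the last injection. The library titles call them whole intestine epithelial cells. From each mouse there were 3 libraries: the input, an immunoprecipitate made with the antibody J2 and one made with the antibody K1, both of which bind double-stranded RNA (dsRNA). The alleles and the Cre driver are not stated in the sources used here.

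Necroptosis and pyroptosis are lytic forms of cell death that release inflammatory cell contents. In necroptosis the kinase Ripk1, or the nucleic acid sensor Zbp1, engages the kinase Ripk3 through a shared motif called RHIM, and Ripk3 phosphorylates Mlkl, which permeabilises the plasma membrane; Casp8 restrains this route by cleaving the kinases. In pyroptosis Casp1, activated in inflammasomes, or Casp4 (caspase-11, which senses bacterial lipopolysaccharide in the cytosol) cleaves Gsdmd into a pore, Casp1 matures the cytokine Il18, and Ninj1 ruptures the membrane at the end. In intestinal epithelium Casp8 is known for keeping Ripk3- and Mlkl-driven death in check.

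The label of epithelial cells was checked against markers. The 8 epithelial markers (such as Epcam, Vil1 and Krt20) summed to 6306 to 7657 CPM in the inputs (CPM is the count scaled to a common library size by TMM over the 12 libraries), and none was at 0. The 10 stromal markers summed to at most 7.25 CPM there. Input libraries held 10307281 to 11474107 gene counts and control pulldowns 13308021 to 16139531, against 2220291 to 5826361 in the DKO pulldowns. In the DKO pulldowns the 10 most abundant genes took 24.7% to 33.6% of gene counts, against 6.57% to 7.67% in control pulldowns. The 2 DKO J2 libraries had a Pearson correlation of log2 CPM of 0.867 and the 2 DKO K1 libraries 0.928, against at least 0.991 for control pulldown pairs. Kat2b fell by 1.51 on the log2 scale in DKO input (SE 0.17, edgeR adjusted p 6.32e-04) and Kat2a fell by 0.88 (SE 0.23, adjusted p 0.0205).

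On GRCm38 the 9 genes lie on 6 chromosomes. Casp1 (9:5298517-5307265, plus strand) and Casp4 (9:5308828-5336783, plus strand) are neighbours, and Il18 is on the same chromosome (9:50554827-50581840). Mlkl (8:111311797-111338177) and Ripk3 (14:55784995-55788865) are on the minus strand, and Ripk1 (13:34002363-34037147), Ninj1 (13:49187485-49196244), Gsdmd (15:75862327-75867408) and Casp8 (1:58795374-58847503) on the plus strand. Reads were counted without strand. Ripk1 shares 9.01% of its exon bases with the opposite-strand gene Serpinb6a and the pseudogene Gm17084, and 5.03% of the Casp8 transcript is nearly identical to Gm20257, so a small share of their counts is uncertain. For the other 7 genes no such sharing was found.

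Promoters of 4 of the 6 members that rose in the input comparison that follows are shown: those of Mlkl and Ripk3, which differed most, and those of Ripk1 and Casp4, where a searched motif was found. The sequences are RefSeq promoters on GRCm38.p6, 250 bases before to 50 bases after an annotated start, 5′ to 3′ on the gene's strand. The table held 10 such promoters for 8 of the 9 members. Capitals mark matches, on either strand, to any of 3 motifs: the interferon response element core GAAANNGAAA, the STAT motif TTCNNNGAA and the NF-kB type motif GGGANTTNCC.
Ripk1, second start, chr13:34002624-34002923, plus strand: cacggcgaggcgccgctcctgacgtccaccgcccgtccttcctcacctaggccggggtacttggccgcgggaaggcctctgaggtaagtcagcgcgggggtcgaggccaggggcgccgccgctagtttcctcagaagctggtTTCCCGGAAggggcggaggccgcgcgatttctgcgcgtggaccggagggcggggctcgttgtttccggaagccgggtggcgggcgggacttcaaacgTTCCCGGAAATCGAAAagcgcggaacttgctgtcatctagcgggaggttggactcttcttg
Casp4, first start, chr9:5308599-5308898, plus strand: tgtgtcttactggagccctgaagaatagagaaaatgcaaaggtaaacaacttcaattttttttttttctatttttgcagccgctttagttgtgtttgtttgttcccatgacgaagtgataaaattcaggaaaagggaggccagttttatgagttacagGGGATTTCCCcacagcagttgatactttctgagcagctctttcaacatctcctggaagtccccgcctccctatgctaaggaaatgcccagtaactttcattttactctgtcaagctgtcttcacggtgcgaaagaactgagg
Mlkl, chr8:111338156-111338455, minus strand: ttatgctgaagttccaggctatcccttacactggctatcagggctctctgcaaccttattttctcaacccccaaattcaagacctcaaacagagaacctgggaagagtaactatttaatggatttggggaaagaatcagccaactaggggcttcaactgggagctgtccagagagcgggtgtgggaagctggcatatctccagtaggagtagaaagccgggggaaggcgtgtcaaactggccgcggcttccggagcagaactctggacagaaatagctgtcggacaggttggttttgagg
Ripk3, chr14:55788808-55789107, minus strand: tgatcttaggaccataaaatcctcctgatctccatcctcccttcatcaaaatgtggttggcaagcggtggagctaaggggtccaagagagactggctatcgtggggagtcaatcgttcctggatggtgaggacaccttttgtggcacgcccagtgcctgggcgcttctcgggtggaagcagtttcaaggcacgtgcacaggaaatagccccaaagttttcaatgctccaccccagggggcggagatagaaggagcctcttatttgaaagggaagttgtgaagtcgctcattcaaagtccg
The Ripk1 promoter held GAAATCGAAA, beginning 5 bases before the start, and TTCCCGGAA beginning 108 and 11 bases before it, the latter match overlapping the former motif. The other Ripk1 promoter (chr13:34002113-34002412) held none of the 3 motifs. The Casp4 promoter held GGGATTTCCC, beginning 92 bases before the start, and the other Casp4 promoter, which overlaps it, holds the same match. None of the 3 motifs was found in the windows of Mlkl and Ripk3, nor in those of Casp8, Casp1, Il18 and Ninj1. Among 32851 promoters of this length, 3.44% held GAAANNGAAA, 8.30% TTCNNNGAA and 1.20% GGGANTTNCC.

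The first comparison asked how the members' RNA differed between DKO and control in input, that is, in RNA before immunoprecipitation. Of the 9 members 6 rose in DKO: Mlkl, Ripk3, Casp4, Casp8, Ninj1 and Ripk1. Of all 15088 genes tested, 35.9% passed the same threshold (edgeR quasi-likelihood test, Benjamini-Hochberg adjusted p under 0.05), 18.8% higher and 17.1% lower. The median log2 fold change was 1.09 over the members and -0.00 over all genes. Because the members were chosen with earlier results of these data known, the values of all genes are given for description only. On CPM both DKO inputs lay above both control inputs for 7 members, as they did for 34.0% of genes. Of the 5421 genes that passed, 2841 were higher and 2580 lower, against 2138 and 2936 with no composition scaling, which moved the median of all genes to -0.13; the 6 calls and their direction were the same in that fit.

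Of the necroptosis genes, the executioner Mlkl had 17.3 and 12.5 CPM in control mice 1 and 2 and 82.6 and 61.5 CPM in DKO mice 1 and 2, from 218, 173, 991 and 837 counts. Both DKO mice stood well above both controls. The log2 fold change was 2.31 (SE 0.21), or 4.97-fold (edgeR adjusted p 3.04e-04). Its kinase Ripk3 had 27.0 and 18.5 CPM in controls and 111 and 102 CPM in DKO, again with no overlap, a log2 fold change of 2.26 (SE 0.19, 4.80-fold, edgeR adjusted p 2.42e-04). Ripk1, the upstream kinase that receives signals from death receptors, had 32.0 and 28.4 CPM in controls and 51.6 and 39.7 CPM in DKO. The groups were separate but closer together than for Mlkl and Ripk3. Its log2 fold change of 0.63 (SE 0.16, edgeR adjusted p 0.0167) did not pass without control mouse 2 (0.54, adjusted p 0.0664).

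Of the caspases, Casp8, which initiates apoptosis and restrains necroptosis, had 83.3 and 75.1 CPM in controls against 232 and 173 CPM in DKO. It rose 2.63-fold (log2 scale 1.4, SE 0.17, edgeR adjusted p 8.80e-04), with no overlap between the groups. Casp4 had 22.4 and 16.7 CPM in controls and 56.5 and 53.6 CPM in DKO (1.53, SE 0.16, 2.90-fold, edgeR adjusted p 4.95e-04). Its chromosomal neighbour Casp1 had 70.4 and 83.5 CPM in controls and 60.6 and 62.0 CPM in DKO. It did not pass the test (-0.29, SE 0.13, edgeR adjusted p 0.121), although both DKO values lay below both control values.

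Of the genes that act at the pore and after it, Ninj1, the protein of the final membrane rupture, rose from 9.79 and 8.51 CPM to 19.4 and 18.4 CPM (log2 fold change 1.09, SE 0.17, edgeR adjusted p 0.00245). Gsdmd, the pore-forming substrate of both inflammatory caspases, had 224 and 225 CPM in controls and 254 and 230 CPM in DKO, a log2 fold change of 0.15 (SE 0.12, adjusted p 0.395). Il18, the cytokine that Casp1 matures, had 59.1 and 46.1 CPM in controls and 42.8 and 51.5 CPM in DKO (-0.12, SE 0.16, adjusted p 0.604). Casp1, Gsdmd and Il18 were the 3 members that did not pass.

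These libraries are bulk RNA, in which fewer cells of a type and less RNA per cell cannot be told apart. Stem cell and proliferation markers moved with the genotype: the 8 stem markers summed to 611 to 618 CPM in control inputs and 132 to 201 CPM in DKO inputs, and the 10 proliferation markers to 429 to 499 and 131 to 180 CPM. The 16 leukocyte markers summed to 139 CPM in each control input and to 91.2 to 109 CPM in DKO inputs. The part of these differences in the members' values was not tested. In a fit of all 12 libraries together 3 of the 6 calls remained (Mlkl, Ripk3 and Casp8), while Casp4 had an adjusted p of 0.0782, Ninj1 of 0.141 and Ripk1 of 0.165 at similar fold changes.

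**Figure D1:**
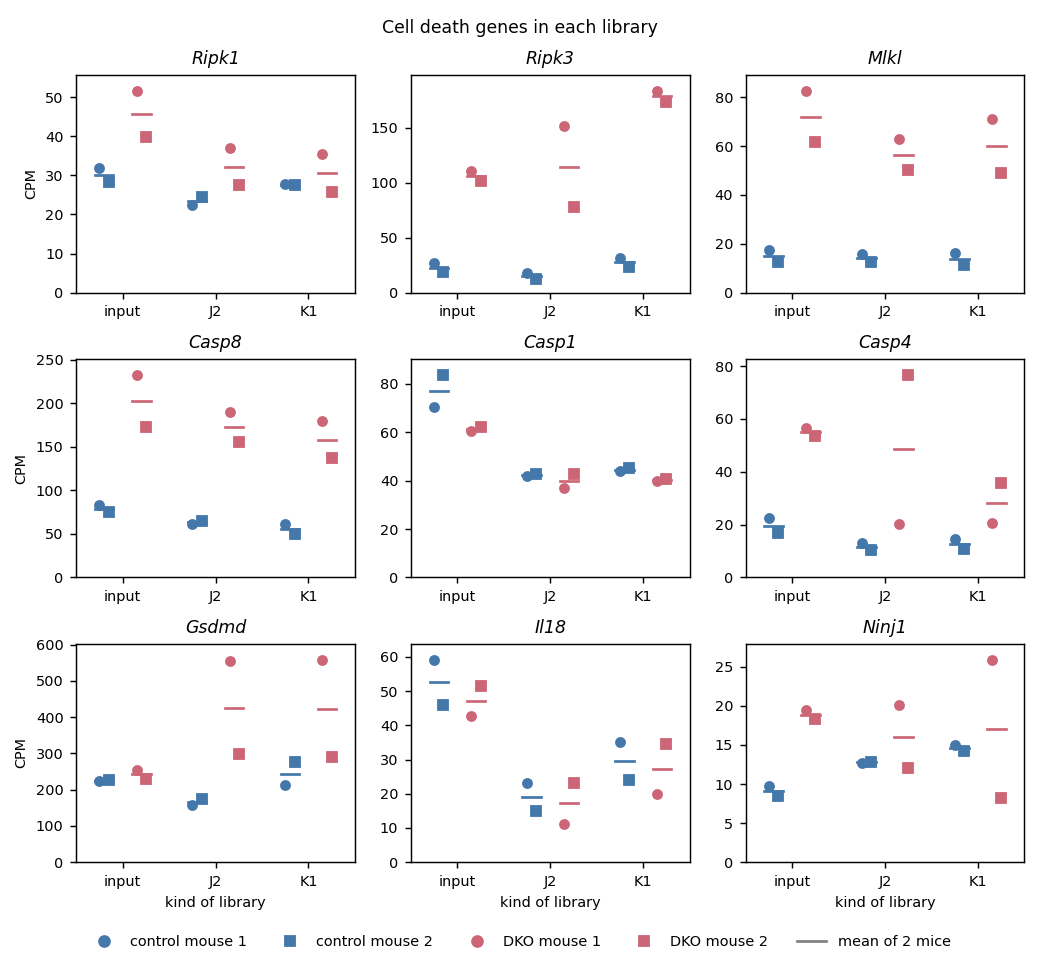
CPM of each gene (vertical axis, from 0, its own scale for each gene) in the 12 libraries by kind of library, with control mice in blue, DKO mice in red, circles for mouse 1, squares for mouse 2 and bars for the mean of 2 mice. Ripk3, Mlkl and Casp8 lie higher in both DKO mice in input, J2 and K1, while Il18 overlaps between the groups in all 3 kinds; Gsdmd is separate mainly in the pulldowns, where DKO mouse 1 has 555 CPM with J2 and 558 CPM with K1.

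Levels of different genes were compared per kilobase of exon. In control input Gsdmd was the most abundant member, at 94.5 ± 0.409 CPM per kb (SD, n = 2), followed by Casp1 at 51.4 ± 6.16 and Il18 at 51.0 ± 8.96, whose ranges overlapped. Casp8 (27.4 ± 2.01 CPM per kb) and Ripk3 (9.93 ± 2.61 CPM per kb) came next. Mlkl, Ninj1 and Casp4 followed at 6.47, 5.83 and 5.27 CPM per kb, each overlapping the next, and Ripk1 was lowest at 3.62 ± 0.304. In DKO input Gsdmd was again highest (102 ± 7.41 CPM per kb) and Ripk1 lowest (5.47 ± 1.01), but the middle of the order had moved. Casp8 (70.1 ± 14.4 CPM per kb) stood above Il18 (45.7 ± 5.95) and Casp1 (40.9 ± 0.637), and Ripk3 (46.3 ± 2.84) overlapped Il18. Mlkl reached 31.3 ± 6.48 CPM per kb, above Casp4 (14.8 ± 0.545) and Ninj1 (12 ± 0.473).

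The same question was put to the RNA recovered with each antibody. In J2 libraries 3 members rose in DKO, where 12.2% of 13181 genes passed and 6.02% passed as higher: Ripk3, Mlkl and Casp8. In K1 libraries 4 rose, where 27.1% of 12888 genes passed and 13.2% passed as higher: the same 3 and Casp4. The median log2 fold change of the members was 1.4 for J2 and 0.97 for K1, against 0.03 and -0.02 over all genes. With no composition scaling the genes called higher and lower changed from 794 and 812 to 446 and 918 for J2, and from 1695 and 1792 to 1148 and 3036 for K1, with a median of -0.39 over all K1 genes. Stromal markers were higher in the same libraries, at 33.3 to 176 CPM in DKO J2 against 4.05 to 21.9 CPM in control J2 and at 79.7 to 208 against 3.39 to 41.1 CPM in K1; their part in these values was not tested. These pulldown differences include the differences already present in input.

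Ripk3 had 18.4 and 12.9 CPM in control J2 and 152 and 77.7 CPM in DKO J2, and 31.4 and 23.8 CPM in control K1 against 184 and 173 CPM in DKO K1. Its DKO values were above its control values with both antibodies, and DKO mouse 2 lay well below DKO mouse 1 with J2 alone. The log2 fold change was 2.90 for J2 (SE 0.44, edgeR adjusted p 0.0301) and 2.88 for K1 (SE 0.29, adjusted p 0.00197). Mlkl had 15.7 and 12.5 CPM in control J2 and 62.7 and 50.3 CPM in DKO J2 (2.05, SE 0.33, edgeR adjusted p 0.0307). With K1 it had 16.5 and 11.6 CPM in controls and 71.3 and 48.9 CPM in DKO (2.28, SE 0.31, edgeR adjusted p 0.00422). In both antibodies the Mlkl values therefore stayed close to those in input, mouse by mouse.

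Casp8 had 61.8 and 64.6 CPM in control J2 and 190 and 156 CPM in DKO J2 (1.51, SE 0.34, edgeR adjusted p 0.0488), and 61.9 and 50.3 against 179 and 137 CPM with K1 (1.68, SE 0.27, adjusted p 0.00634). Casp4 was uneven between the DKO mice: 20.4 and 76.5 CPM in DKO J2, from 80 and 248 counts, against 13.0 and 10.2 CPM in control J2. Its J2 log2 fold change of 2.17 (SE 0.71, edgeR adjusted p 0.0955) did not pass. It was 2.80 without DKO mouse 1 and 0.87 without DKO mouse 2. The Casp8 call in J2 passed in 4 of 10 alternatives and was lost with RLE (edgeR adjusted p 0.0520), no composition scaling (0.0545), no filter (0.0980) and the replicate block (0.0853). Casp4 in J2 passed in 6 of 10. Both counts include the fits without DKO mouse 1 and without DKO mouse 2. With K1, Casp4 had 14.4 and 10.8 CPM in controls and 20.7 and 35.8 CPM in DKO (1.35, SE 0.40, edgeR adjusted p 0.0433).

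Gsdmd, which did not pass in input, had 159 and 174 CPM in control J2 and 555 and 297 CPM in DKO J2. With K1 it had 213 and 275 CPM in controls and 558 and 290 CPM in DKO. The groups did not overlap with either antibody, and DKO mouse 2 lay much nearer to the controls than DKO mouse 1. The log2 fold changes of 1.4 for J2 (SE 0.48, edgeR adjusted p 0.105) and 0.97 for K1 (SE 0.36, adjusted p 0.0842) did not pass, though both passed with DESeq2 (adjusted p 0.0361 and 0.0365) and J2 in the fit of all 12 libraries (edgeR adjusted p 0.0223). Without DKO mouse 2 the values were 1.80 for J2 and 1.35 for K1, and without DKO mouse 1 the J2 value was 0.92. Such fits hold no spread between DKO mice, so whether they passed was not read as a result.

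The other 4 members did not pass with either antibody. Ripk1 had log2 fold changes of 0.51 (J2) and 0.34 (K1). Casp1 had 41.9 and 42.7 CPM in control J2 and 37.0 and 42.6 CPM in DKO J2, and 43.9 and 45.2 against 39.9 and 40.8 CPM in K1. Its fitted values of -0.02 and 0.05 straddle 0, and their sign changes with the scaling. Il18 (-0.07 and 0.06) overlapped between the groups with both antibodies. Ninj1 had 12.7 and 12.9 CPM in control J2 and 20.1 and 12 CPM in DKO J2, and 15.1 and 14.2 against 25.9 and 8.15 CPM in K1, the last from 18 counts. DKO mouse 1 was thus above and DKO mouse 2 below both controls with each antibody. Without DKO mouse 2 the Ninj1 log2 fold change was 0.72 for J2 and 0.98 for K1.

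Leaving out a control mouse ended most of these calls, as it ended most calls over all genes. Only the DKO mice then give the spread between mice. In J2 the calls of Ripk3, Mlkl and Casp8 were lost without control mouse 1 or 2. Without a control mouse their log2 fold changes were 2.61 to 3.14 for Ripk3, 1.83 to 2.17 for Mlkl and 1.43 to 1.47 for Casp8. Their J2 calls were kept without DKO mouse 1 or 2, where calls over all genes became far more numerous. Such fits hold no spread between DKO mice, so this was not read as a result. In K1, Ripk3 and Mlkl passed without any 1 of the 4 mice, while Casp8 and Casp4 did not pass without control mouse 1 or 2. Casp4 in K1 also did not pass with no composition scaling (edgeR adjusted p 0.126) or with all 12 libraries (0.117).

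**Figure D2:**
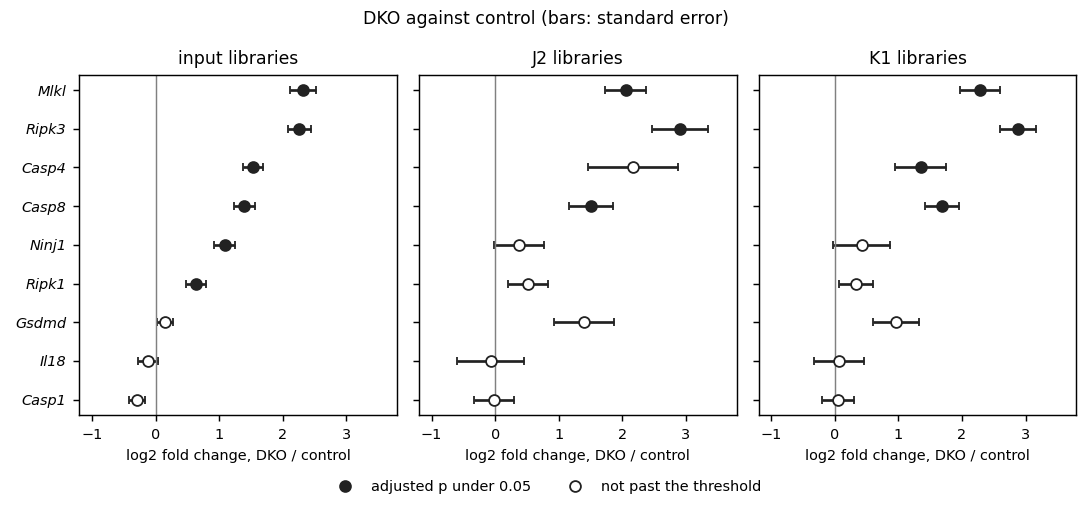
Log2 fold change of DKO over control (horizontal axis) for each member in input, J2 and K1 libraries, with bars for the standard error and filled points for an edgeR adjusted p under 0.05. Ripk3, Mlkl and Casp8 are filled in all 3 panels and Il18 and Casp1 lie near 0 in the pulldowns.

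The next comparison set each pulldown against the input of its group, which asks whether the members' RNA was recovered by antibodies to dsRNA more or less than other RNA. All calls among the members were depletions, on the scale where the median of all genes lay between -0.14 and 0.10 in the 4 comparisons and between -0.48 and -0.23 with no composition scaling. With J2, Casp1 and Il18 were below input in control, where 29.8% of 15923 genes passed in either direction and 14.6% as lower, and Il18 was below input in DKO (25.7% of genes, 13.4% as lower). With K1, Casp1 and Il18 were below input in control (39.8% of 15908 genes, 20.1% as lower), and Casp4, Casp1, Il18 and Ripk1 in DKO (35.6%, 21.0% as lower).

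Il18 was the member most depleted by J2: pulldown minus input of the same mouse was -1.34 and -1.61 in controls and -1.91 and -1.15 in DKO on the log2 CPM scale. All 4 mice were below 0. The fitted values were -1.45 in control (SE 0.36, edgeR adjusted p 0.0203) and -1.44 in DKO (SE 0.38, adjusted p 0.0281). With K1 they were -0.90 (SE 0.29, adjusted p 0.0290) and -0.91 (SE 0.31, adjusted p 0.0419). Casp1 was below input in all 4 mice with both antibodies as well, with fitted values of -0.86 (SE 0.22, edgeR adjusted p 0.0226) and -0.60 (SE 0.22, adjusted p 0.0840) for J2 in control and DKO and of -0.87 (SE 0.18, adjusted p 0.00432) and -0.69 (SE 0.19, adjusted p 0.0198) for K1. Without control mouse 1 or 2 none of the 7 calls of these genes passed. In such a fit only the DKO mice give the spread between mice. Most calls over all genes were lost as well for J2 in both genotypes and for K1 in control. For K1 in DKO most calls over all genes remained, so there the loss of the Il18 and Casp1 calls was not general. Over all alternatives Il18 ranged from -1.83 to -1.32 in control J2 and from -1.13 to -0.80 in control K1. Casp1 ranged from -1.24 to -0.72 and from -1.10 to -0.73. The Il18 call in DKO K1 was also lost with RLE (edgeR adjusted p 0.0501), with DESeq2 (adjusted p 0.0535) and without DKO mouse 1. That in DKO J2 was lost with no composition scaling (edgeR adjusted p 0.0691). With no filter Casp1 did not pass in control J2 (edgeR adjusted p 0.0955) or DKO K1 (0.0681).

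By mouse, Casp4 in K1 pulldown minus input was -0.62 in each of the 2 controls, and -1.44 and -0.58 in the DKO animals. Its fitted K1 value was -1.08 in DKO (SE 0.29, edgeR adjusted p 0.0171) and -0.70 in control (SE 0.28, adjusted p 0.0683), and the latter had an adjusted p of 0.0160 with the animal as block. Casp8 in control K1 did not pass (-0.57, SE 0.25, edgeR adjusted p 0.0866, and 0.0344 with the block). Both control values passed in 6 of 9 alternatives, RLE scaling and DESeq2 among them, and the Casp4 call in DKO was lost without DKO mouse 1 (-0.74, edgeR adjusted p 0.108). For Ripk1 the K1 values were -0.54 and -0.62 in the DKO mice against -0.20 and -0.05 in controls, without overlap, and its DKO value passed (-0.64, SE 0.22, edgeR adjusted p 0.0433). That call was lost with RLE (0.0554), no filter (0.0996), DESeq2 (adjusted p 0.0716) and without control mouse 1 or 2 (0.152 and 0.153), and passed in 4 of 9 alternatives.

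With K1, Ripk3 was above input in all 4 mice, by 0.22 and 0.36 in controls and 0.73 and 0.77 in DKO. Its fitted DKO value was 0.67 (SE 0.24, edgeR adjusted p 0.0517, and 0.0145 with the animal as block; it passed in 4 of 9 alternatives), and its control value 0.20 (SE 0.24, adjusted p 0.537). With J2 it was -0.55 and -0.51 in controls and 0.45 and -0.38 in DKO, with 1 DKO mouse on each side of 0. Mlkl stayed within 0.40 of its input in all 4 mice with both antibodies, and none of its 4 fitted values passed, the one farthest from 0 being -0.33 (SE 0.27) for K1 in DKO. Ninj1 was above input in controls with both antibodies (0.37 and 0.59 for J2, 0.61 and 0.73 for K1) and split between the DKO mice, and its fitted control values of 0.49 (J2, SE 0.28) and 0.60 (K1, SE 0.36) did not pass.

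Whether recovery differed between the genotypes was tested by the difference of enrichment, DKO minus control. With edgeR 0 of 9 members passed for J2, where 2.71% of genes did, and 0 of 9 for K1, where 5.47% did and the median of all genes was -0.20. At an unadjusted p under 0.05 there was 1 member for J2 (Gsdmd) and 0 for K1, against 25.9% and 23.5% of all genes, and DESeq2 also called 0 for each. The member with the largest J2 difference was Gsdmd. By mouse its J2 pulldown minus input was -0.50 and -0.37 in controls and 1.13 and 0.37 in DKO, with no overlap, and the fitted difference was 1.27 (SE 0.52, unadjusted p 0.0378, edgeR adjusted p 0.17). With K1 it was -0.07 and 0.29 in controls and 1.13 and 0.34 in DKO (difference 0.69, SE 0.43, edgeR adjusted p 0.374). The Gsdmd difference passed for J2 with no composition scaling (1.22, edgeR adjusted p 0.0418). For J2 it was 0.82 without DKO mouse 1 and 1.57 without DKO mouse 2, and for K1 it was 1.00 without DKO mouse 2.

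The largest differences in the other direction were those of Ninj1, -0.69 for J2 (SE 0.41, edgeR adjusted p 0.318) and -0.76 for K1 (SE 0.52, adjusted p 0.413). Without DKO mouse 1 they were -1.08 for J2 and -1.91 for K1. For Casp4 the J2 difference of 0.59 (SE 0.72) became 1.27 without DKO mouse 1 and -0.71 without DKO mouse 2. Mlkl (-0.25, SE 0.39, and -0.17, SE 0.39), Casp8 (0.12, SE 0.39, and 0.14, SE 0.35) and Il18 (0.02, SE 0.52, and -0.01, SE 0.42) had differences for J2 and K1 smaller than their standard errors. No member passed with the animal as block, a fit in which 0 genes passed for J2 and 1912 for K1, against 432 and 870 without the block.

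**Figure D3:**
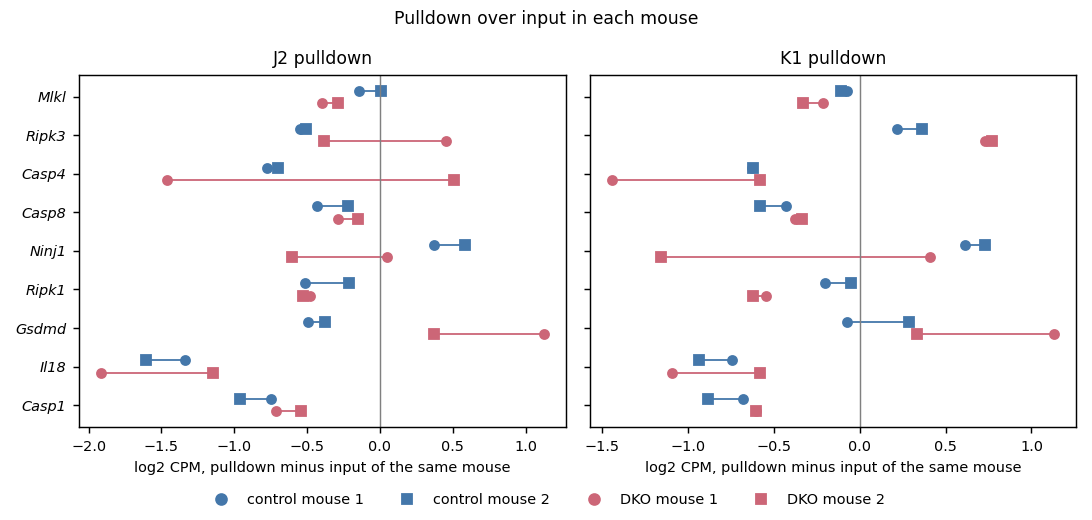
Log2 CPM in the pulldown minus log2 CPM in the input of the same mouse (horizontal axis, 0 meaning equal levels) for J2 (left) and K1 (right), with controls in blue, DKO in red, circles for mouse 1, squares for mouse 2 and a line joining the 2 mice. Il18 and Casp1 lie left of 0 in every mouse, Gsdmd in DKO lies right of 0, and the DKO mice are far apart for Casp4 with J2 and for Ninj1 with K1.

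The genes that feed these members were read from 6 lists. Their counts in DKO input stand beside 18.8% of all genes called higher, 17.1% lower and 35.9% in either direction. Of 20 genes tested from the list of death receptors, their ligands, adaptors and brakes, 7 rose and 2 fell. Tnf, the ligand of Tnfrsf1a, had 1.51 and 0.721 CPM in controls and 11.6 and 8.38 CPM in DKO (log2 fold change 3.20, SE 0.36, edgeR adjusted p 7.15e-04), from 19, 10, 139 and 114 counts. Tnfaip3 (A20, a ubiquitin-editing brake on this pathway) rose by 1.79, the receptor Tnfrsf10b by 1.09 and Rnf31, the catalytic subunit of the linear ubiquitin ligase, by 0.73. These 4 calls held in each alternative run, except Rnf31 in the fit of all 12 libraries (edgeR adjusted p 0.491). The 2 that fell are the partners with which Casp8 holds necroptosis in check: the adaptor Fadd (-0.64, SE 0.17, edgeR adjusted p 0.0224) and the inactive Casp8 relative Cflar (-0.45, SE 0.11, adjusted p 0.0188). Neither passed without control mouse 1 or 2 (Fadd 0.0958 and 0.126, Cflar 0.120 and 0.132, edgeR adjusted p), and Fadd did not pass with DESeq2 (adjusted p 0.0560). Fadd had 16.7 and 17.0 CPM in controls and 9.59 and 11.4 CPM in DKO, and Faddos, on the opposite strand, covers 6.12% of its exon bases. Of the longest transcripts of Tnfrsf10b and Cflar, 17.3% and 13.6% are nearly identical to transcripts of other genes.

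Of the 3 genes that reach Ripk3 through RHIM or viral RNA sensing, 2 rose in input (18.8% of all genes). Zbp1, the sensor of Z-form nucleic acid, had 106 and 38.5 CPM in controls and 340 and 309 CPM in DKO. The control mice differed from each other but lay below both DKO mice (2.21, SE 0.40, edgeR adjusted p 0.00517). Zbp1 also rose in J2 (3.00, SE 0.57, edgeR adjusted p 0.0382) and K1 (2.77, SE 0.44, edgeR adjusted p 0.00631). It did not pass in J2 without control mouse 1 (3.49) or 2 (2.54), nor in K1 without control mouse 2 (2.27). In these fits most calls over all genes were lost. Tlr3, the endosomal receptor for dsRNA, rose in input (0.95, SE 0.17, edgeR adjusted p 0.00437), from 37.3 and 31.1 to 72.8 and 55.6 CPM. Without strand, 7.32% of the Tlr3 exon bases also belong to Gm45542 on the opposite strand. In J2 libraries, by contrast with input, Tlr3 had 42.1 and 35.9 CPM in controls and 17.3 and 17.6 CPM in DKO. Its difference of enrichment passed for J2 (-2.04, SE 0.34, edgeR adjusted p 0.0349) and K1 (-1.42, SE 0.36, adjusted p 0.0498), as that of the Tlr3 adaptor Ticam1 did for K1 (-1.33, SE 0.27, adjusted p 0.0276). The J2 difference of Tlr3 had an edgeR adjusted p of 0.0712 with the animal as block and 0.0526 with no composition scaling. Its K1 difference had an adjusted p of 0.0857 with RLE scaling (edgeR) and 0.0564 with DESeq2. None of the 3 passed without control mouse 1 or 2, where almost no gene of the whole data passed.

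Of 18 inflammasome genes 12 were tested, of which 5 rose and 5 fell in input, against 18.8% and 17.1% of all genes. Pycard (ASC), the adaptor that joins sensors to Casp1, had 49.4 and 48.1 CPM in controls and 7.34 and 7.79 CPM in DKO. It fell by 2.65 on the log2 scale, or 6.26-fold (SE 0.13, edgeR adjusted p 5.69e-05), and it fell in J2 (-4.10, SE 0.63, adjusted p 0.0306) and K1 (-3.90, SE 0.39, adjusted p 0.00197). The sensors Nlrp1b (-1.42, SE 0.24, edgeR adjusted p 0.00369) and Nlrp6 (-1.36, SE 0.14, adjusted p 5.30e-04) also fell. Il18bp, the secreted protein that neutralises Il18, rose from 23.6 and 14.3 to 163 and 132 CPM (3.00, SE 0.24, 8.0-fold, edgeR adjusted p 2.15e-04), while Il18 itself did not pass. Il1b, the other Casp1 cytokine, had 3 and 1 counts in control inputs and 4 and 1 in DKO inputs and was not tested. Without strand, 12.8% of the Pycard exon bases also belong to Gm45205.

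Among the other gasdermins 5 of 8 were tested and 3 fell (17.1% of all genes), all of the Gsdmc cluster: Gsdmc2 (-2.90), Gsdmc4 (-2.74) and Gsdmc3. With DESeq2 neither Gsdmc2 (adjusted p 0.0535) nor Gsdmc4 (0.102) passed. Gsdmc4 had 35.4 and 19.3 CPM in controls and 0.834 and 6.91 CPM in DKO (SE 0.65, edgeR adjusted p 0.0148). Counts of Gsdmc2 and Gsdmc3 are uncertain and cannot be taken as separate measurements. Of the Gsdmc2 transcript 75.6% is nearly identical to Gsdmc3, and of the Gsdmc3 transcript 75.1% to Gsdmc2. Of the other caspases, the executioner Casp6 fell (-0.90, SE 0.12, edgeR adjusted p 0.00157), as did Casp2 (-0.61, SE 0.15, adjusted p 0.0149). Neither passed in the fit of all 12 libraries (edgeR adjusted p 0.118 and 0.0869). Of 16 genes of the mitochondrial route 15 were tested and 7 rose (18.8% of all genes), among them the BH3-only genes Pmaip1 (2.34, SE 0.32, edgeR adjusted p 0.00158), Bcl2l11 (1.39, SE 0.23, adjusted p 0.00329) and Bid (1.1, SE 0.22, adjusted p 0.00790) and the pore former Bax (1.36, SE 0.24, adjusted p 0.00475). Bid shares 17.7% of its exon bases with Bcl2l13 on the opposite strand, and Bax 12.2% with Gm45808.

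**Figure D4:**
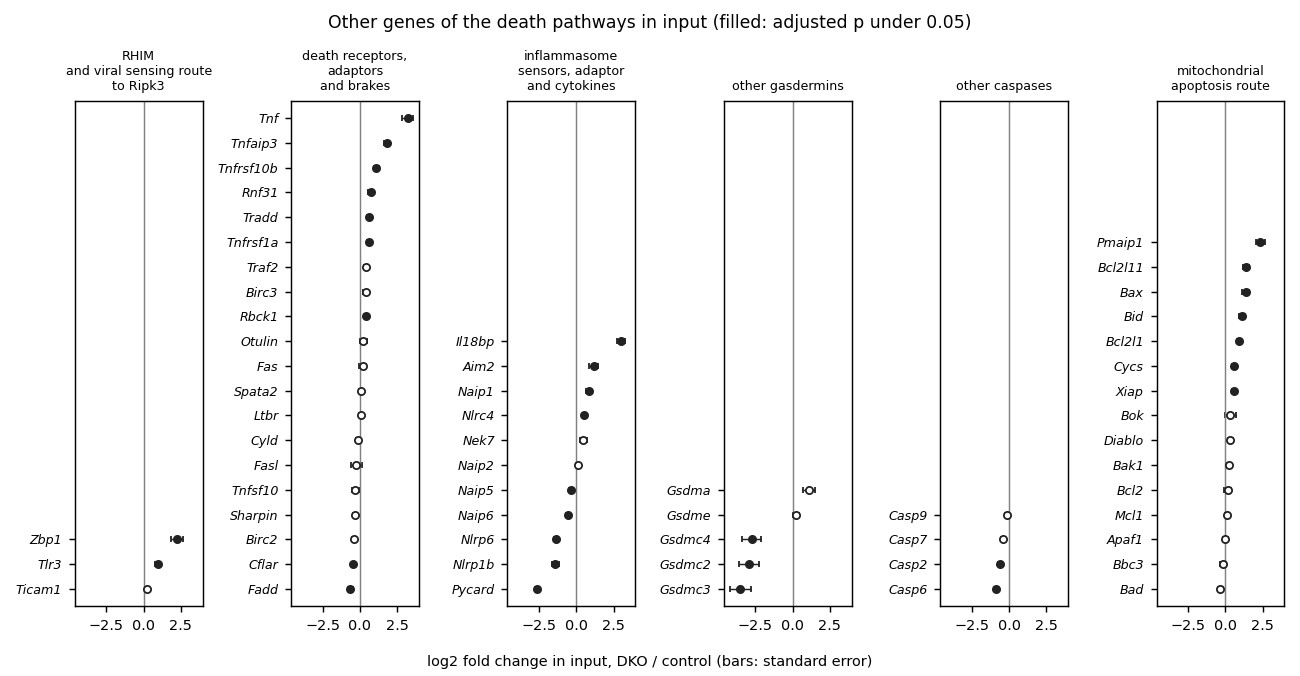
Log2 fold change of DKO over control in input (horizontal axis, bars for the standard error) for the tested genes reported here from the 6 lists, filled where the edgeR adjusted p was under 0.05. Tnf, Zbp1, Il18bp and Pmaip1 lie farthest to the right in their lists and Pycard and the Gsdmc genes farthest to the left; Il1rn, at 0 counts in both control inputs and 83 and 70 in DKO inputs, is not drawn.

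For each member the genes most like it across the 12 libraries were found by Pearson correlation of log2 CPM among 9374 genes. The libraries come in 3 kinds from the same 4 mice, so the points share mice, depth and genotype, and the values are descriptive. Mlkl was most like the chemokine Cxcl10 (r = 0.995) and the oligoadenylate synthetase genes Oasl2 (0.993) and Oas1a (0.990). Casp8 was most like Mx1 (0.986), Ache (0.985) and Cxcl10 (0.982), and Ripk3 like Gsn (0.986), Hk1 (0.985) and C4b (0.982). Casp4 came with Morc3 (0.971), Pea15a and Wdr44, and Ripk1 with Acot9 (0.951), Cxcl16 and Lgals3. Gsdmd was most like Tyw1 (0.986), Papln and Sqstm1, Casp1 like Rps26 (0.971), Defa3 and Pex13, Il18 like Ndufa12 (0.962), Hist1h4n and Apoo, and Ninj1 like Gusb (0.922), Usp25 and Egfr. Among the members themselves the closest pairs were Mlkl with Casp8 (0.977), Mlkl with Ripk3 (0.946) and Ripk3 with Casp8 (0.896). Casp1 with Il18 had 0.806, while Gsdmd and Il18 (-0.43) had the lowest value.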

How the data were processed

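The files hold whole-number counts of reads per gene, raw as deposited by the authors, 1 file per library, for 4 mice with 3 libraries each. Per the labels the libraries were rRNA-depleted, made with random hexamers and unique molecular identifiers, and counted without strand; the submitters' processing notes name STAR 2.7.10b, SAMtools 1.17, UMI-tools 1.1.4, HTSeq 2.0.2, DESeq2 1.40.1, edgeR 3.42.2 and the builds mm10 and GRCm38.p4, with no order, and whether the identifiers were used for the counts is not given in the sources used here. Rows outside genes held 18.7% to 61.2% of each file and were left out. The members and lists were chosen with earlier results of these data known.

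Counts were fitted with edgeR 4.0.16 (quasi-likelihood test, TMM, filterByExpr with a minimum count of 10, Benjamini-Hochberg adjustment over all genes), 4 libraries for DKO against control and 8 for pulldown against input. The fits were tested on simulated data. With 2 mice a group the spread between mice is estimated from few degrees of freedom, and the DKO pulldowns had the fewest counts. For DKO against control p-values measure the spread between these mice. The main fits of pulldown against input and of the difference of enrichment hold no block, so their p-values treat libraries of 1 mouse as independent. Leaving out a mouse leaves 1 mouse in its group, and only the other group then gives the spread between mice. No pair of libraries of a group agreed within counting noise (chi-square per degree of freedom at least 9.78). The file descriptions name the animal of each library, and libraries of 1 animal deviated together from their group means (input with pulldown, correlations of 0.208 to 0.296), so the animal pairs input and pulldown. Alternatives were other scaling, no filter, DESeq2 1.42.0, a replicate block, all 12 libraries in 1 fit and leaving out each mouse. Other genes were named by a rule: up to 4 per list and comparison with the largest change among those past the threshold with a mean of at least 50 counts, plus Zbp1, Fadd, Cflar, Pycard and Il1b, and the 3 genes most like each member. Some results are not reported here. Il1rn and Gsdmc3 were named after their values were seen. Gene positions and overlaps come from the GENCODE M21 annotation of GRCm38, and near-identical sequence (at least 97% over at least 100 bases) from blastn 2.17.0+.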

Additional observations from a re-analysis of the deposited data

Results flagged for a closer look

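Differences in 10 gene and antibody pairs of the pathway lists are flagged because the effect of the pulldown differed between the genotypes by the test of that difference. Over all genes 2.71% passed this test for J2 and 5.47% for K1. With J2 the pulldown-to-input log2 ratio of the DKO mice less that of the controls was -2.04 for Tlr3, -1.99 for Fadd and -2.62 for Xiap, an inhibitor of caspases (edgeR adjusted p 0.0349, 0.0452 and 0.0453). With K1 it was -1.42 for Tlr3, -1.33 for Ticam1, -2.07 for Nek7, which licenses the Nlrp3 inflammasome, -1.16 for the sensor gene Naip2, -1.69 for Xiap, 1.43 for the anti-apoptotic gene Mcl1 and -1.34 for the pore former Bak1 (edgeR adjusted p 0.0498, 0.0276, 0.0299, 0.0404, 0.0260, 0.0461 and 0.0499). None of the 10 passed without control mouse 1 or 2. Almost no gene of the whole data passed in those fits, so this loss is not particular to these genes. With the animal as block none of the 3 J2 values passed (edgeR adjusted p 0.0712, 0.0777 and 0.0734). With RLE the K1 values of Tlr3, Naip2 and Bak1 did not pass (edgeR adjusted p 0.0857, 0.0703 and 0.0841). The J2 value of Tlr3 was also lost with no composition scaling and its K1 value with DESeq2. Nek7 and Fadd rest on low values in DKO. The mean of Nek7 was 12.5 CPM in control K1 and 4.26 CPM in DKO K1. That of Fadd was 34.9 CPM in control J2 and 5.32 CPM in DKO J2. Nlrp3 itself had at most 2 counts in any library. The DKO pulldowns were the shallower libraries, with the larger share of counts in their 10 most abundant genes. The part of this depth and composition in the flagged differences was not tested. None of the 9 cell death genes met the same criterion. Counted without strand, Bak1 shares 18.2% of its exon bases with Ggnbp1 and Tlr3 shares 7.32% with Gm45542, both on the opposite strand.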

How the results depend on the processing

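Over the 9 genes and 9 comparisons, settings other than leaving out a mouse gave 364 values with the same direction and call as the reported ones, 27 that newly passed the edgeR or DESeq2 threshold, 17 that no longer passed and 24 of opposite sign; leaving out a mouse gave 234, 38, 29 and 23. In input Mlkl, Ripk3 and Casp8 passed under every alternative run. Where a count or sign changed, the cause was not tested. The degrees of freedom left are the same whichever mouse is left out. Which group then gives the spread between mice is not the same: the DKO pair without a control mouse, the control pair without a DKO mouse. There were 2 mice a group, and as few as 18 counts for Ninj1 in a DKO pulldown. The DKO pulldown pairs differed beyond counting noise (chi-square per degree of freedom 84.4 for J2 and 43.0 for K1), more than the control pairs (12.7 and 22.7).

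Genes of the 9 that passed for DKO against control numbered 3 in input with all 12 libraries in 1 fit (6 reported), and 5 in J2 with DESeq2 and 5 with all 12 libraries (3 reported). For J2 against input they numbered 4 with no composition scaling and 1 with no filter in control (2 reported), and 2 with DESeq2 in DKO (1 reported). For K1 against input in control they numbered 4 with RLE and 4 with DESeq2 (2 reported). For the J2 difference of enrichment 1 passed with no composition scaling (0 reported). Over all genes, 1675 passed in input with all 12 libraries (5421 reported). In J2 4273 passed with no filter, 2884 with DESeq2 and 5984 with all 12 libraries (1606 reported). For the J2 difference 669 passed with no composition scaling, 2453 with no filter and 2018 with DESeq2 (432 reported), and for the K1 difference 523 with RLE and 1763 with no filter (870 reported).

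In the fits that kept all mice, no log2 value of opposite sign was a call. The one farthest from 0 was -0.313, for Casp1 in K1. For DKO against control the values of opposite sign in these fits were 0.0308 (RLE) and 0.0309 (DESeq2) for Casp1 in J2. In K1 they were -0.041 for Ripk1 with no composition scaling, -0.31 (no composition scaling), -0.14 (no filter) and -0.14 (all 12 libraries) for Casp1, and -0.28, -0.14 and -0.15 under the same settings for Il18. Against input they were -0.30 (no composition scaling) and -0.10 (no filter) for Ripk3 with J2 in DKO, -0.024 (no composition scaling) for Ripk3 with K1 in control, and -0.086 (RLE), -0.20 (no composition scaling) and -0.086 (DESeq2) for Gsdmd with K1 in control. For the J2 difference they were -0.18 for Casp8, -0.041 for Casp1 and -0.28 for Il18 with no filter, and -0.020 (RLE) and -0.016 (DESeq2) for Il18. For the K1 difference they were 0.16 (RLE), 0.031 (no filter) and 0.17 (DESeq2) for Il18.

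Leaving out each mouse in turn gave 0 to 7 calls among the 9 genes in J2 and 2 to 6 in K1 for DKO against control, 0 to 7 and 0 to 4 for J2 against input in control and DKO, 0 to 5 and 1 to 5 for K1 against input, and 0 to 3 and 0 to 1 for the J2 and K1 differences. Over all genes the counts were 177 to 8635 in J2, 1149 to 5819 in K1, 0 to 10139 and 337 to 7791 for J2 against input in control and DKO, 281 to 9189 and 3005 to 5970 for K1 against input, 0 to 6990 for the J2 difference and 0 to 3802 for the K1 difference. Values whose sign changed without a mouse ranged, for DKO against control, from -0.29 to 0.065 for Il18 in input, from -0.13 to 0.089 for Casp1, from -0.71 to 0.35 for Il18 and from -0.0081 to 0.72 for Ninj1 in J2, and from -0.42 to 0.46 for Il18 and from -0.60 to 0.98 for Ninj1 in K1. Against input they ranged from -0.19 to 0.024 for Mlkl with J2 in control, from -0.50 to 0.48 for Ripk3, -1.44 to 0.40 for Casp4 and -0.72 to 0.079 for Ninj1 with J2 in DKO, from -0.13 to 0.20 for Gsdmd with K1 in control and from -1.33 to 0.33 for Ninj1 with K1 in DKO. The J2 difference ranged from -0.023 to 0.18 for Casp8, -0.026 to 0.33 for Casp1, -0.71 to 1.27 for Casp4 and -0.47 to 0.31 for Il18, and the K1 difference from -0.29 to 0.18 for Il18.

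Between genotypes the replicate block joins different mice that share only a number (correlations of their deviations from -0.105 to 0.0261), and it called 6 of the 9 genes in input, 3 in J2 (Casp4 in place of Casp8) and 4 in K1 and 5732, 2262 and 3377 genes in all. With the animal as block for pulldown against input, 4 genes instead of 2 passed for K1 in control and 5 instead of 4 in DKO, the J2 counts of 2 and 1 were as reported, the all-gene counts were 4483, 3398, 7288 and 6337, and the J2 and K1 differences had 0 and 1912 calls over all genes. The block value for Il18 in the J2 difference was -0.023.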
